A study of Rattus norvegicus with 18 samples.

Results

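RNA isoforms that were most abundant in the monosome fraction of rat brain form the subject here. In polysome profiling, a brain lysate is spun through a sucrose gradient, which separates RNA that carries no ribosome (ribosome-free), RNA that sediments with a single ribosome (monosome) and RNA that carries several ribosomes (polysome). RNA sediments as a monosome when 1 ribosome sits on it, as on a very short open reading frame (ORF), on an upstream ORF or at a start codon before elongation. In neuronal processes, some transcripts are known to be translated by single ribosomes. Members were chosen from the isoform levels in these libraries, given as TPM, the share of a library's transcripts that an isoform takes. An isoform was a member when both monosome libraries held at least 5 TPM and their mean was at least 2 times the mean of the ribosome-free libraries and at least 2 times that of the polysome libraries. Of 28268 full-length isoforms, 12244 reached 5 TPM in both monosome libraries and 1385 (4.90% of all isoforms, 11.3% of the 12244) were members. No member was lost to a further filter on low values in the fractions.

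The study reconstructed full-length transcripts of rat hippocampus and measured them with Illumina libraries from untreated male Sprague Dawley rats aged 4 weeks. From whole brain, each of the 3 gradient fractions gave 2 libraries. From hippocampal slices came 2 libraries of hippocampus and, cut by hand from the CA1 region, 2 of the somata layer, which holds cell bodies, and 2 of the neuropil layer, which holds mostly axons and dendrites. The fraction lysates all contained cycloheximide, which holds ribosomes on RNA. The labels do not say whether 2 replicates came from separate animals, so the tests measure only the spread between libraries. The fractions came from whole brain and the isoform collection from hippocampus, so brain region and fraction cannot be told apart when their levels are set side by side. TPM keep no read numbers, so the depth behind every value is unknown, and an isoform can be listed at 0 where its reads were assigned to a similar one. The tables name isoforms by read identifiers alone, so neither tissue nor cell type markers could be checked, and isoform sequences were not used here.

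By construction, members were high in the monosome libraries. Their median level was 3.55 and 3.48 TPM in the 2 ribosome-free libraries, 15.1 and 15.4 TPM in the 2 monosome libraries, and 4.08 and 4.17 TPM in the 2 polysome libraries. These levels chose the members and are a description, with no test. On the log2(TPM + 1) scale, the median difference of members was 1.75 between monosome and ribosome-free RNA and 1.59 between monosome and polysome RNA. The other 10859 isoforms with at least 5 TPM in both monosome libraries had medians of 0.69 and -0.07. In 1352 members (97.6%), both monosome libraries lay above all 4 libraries of the other fractions, which held for 18.4% of all isoforms. Of the members, 118 were listed at 0 in both ribosome-free libraries, 43 in both polysome libraries and 13 in all 4. Among the 10859 others these numbers were 281, 48 and 0, the last by the rule. Among all 28268 isoforms they were 8145, 6526 and 4614.

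**Figure D1:**
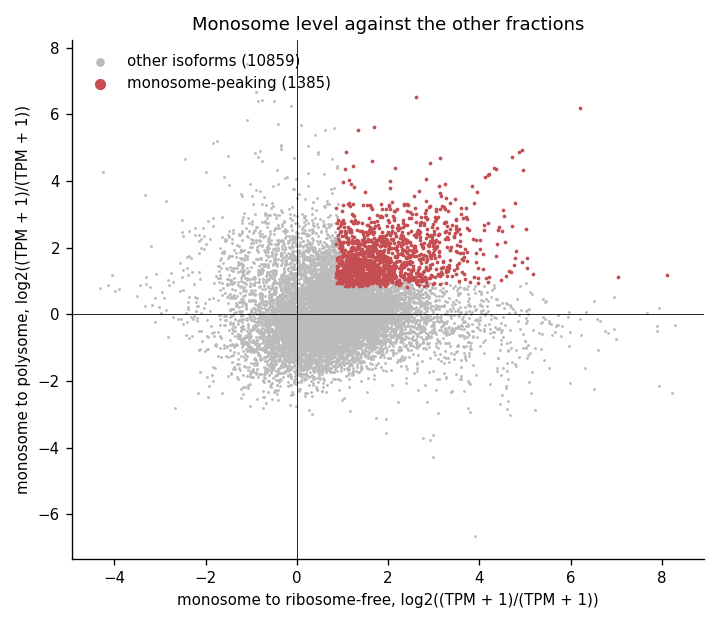
Each point is an isoform with at least 5 TPM in both monosome libraries; the x axis gives the log2 ratio of monosome to ribosome-free RNA and the y axis that of monosome to polysome RNA, both on means of 2 libraries with 1 TPM added. The 1385 members (red) fill the upper right of the cloud because the rule placed them there, and the cloud of the 10859 others (grey) lies around a median of 0.69 on the x axis and -0.07 on the y axis.

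Members covered a wide range of levels but were mostly of low abundance. The monosome mean ran from 5.19 to 12324 TPM, with quartiles of 9.23, 15.3 and 37.3 TPM. All members together took 10.9% and 11.2% of the TPM of the monosome libraries, 3.45% and 3.44% of those of the ribosome-free libraries and 3.23% and 3.87% of those of the polysome libraries. The most abundant member was an isoform of 727 nt (RNN_LD1.108_sub_35915_12805_4112_4839_727_SUB0_pTNp_40), with 5481 and 5220 TPM in the ribosome-free, 11946 and 12702 TPM in the monosome, and 2917 and 4146 TPM in the polysome libraries. It was also the member with the highest level in hippocampus, at 7832 and 5277 TPM. The next in monosome level were isoforms of 574 nt (4476 and 3565 TPM in the monosome libraries), 448 nt (3572 and 3597 TPM) and 3243 nt (2405 and 2897 TPM), so 3 of these 4 were shorter than 1000 nt. None of the 4 passed the rule after median-ratio scaling, where the smaller of their log2 ratios to the other fractions was 0.50 (727 nt), 0.45 (574 nt), 0.38 (448 nt) and 0.94 (3243 nt). After quantile normalization this value was 1.27 for the 574-nt isoform, which passed. It was 0.999 (727 nt) and 0.992 (448 nt), just under a ratio of 2. The 3243-nt isoform kept its membership in 13 of 14 alternative settings.

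Membership was compared between replicates as a description, since the same 6 libraries chose the members. When the rule was applied to 1 library of each fraction, 1914 isoforms passed in replicate 1 and 46.3% of them passed again in replicate 2, against 10.4% of all isoforms with at least 5 TPM in monosome replicate 1. Of 1765 isoforms that passed in replicate 2, 50.2% passed in replicate 1, against 11.1%. Of the 1385 members, 886 (64.0%) passed in both replicates taken separately. The rule took the mean of both replicates, so this share is in part set by the selection. Among members with a monosome mean of at least 100 TPM this share was 73.4%. The median absolute difference between 2 replicates of members was 0.23 on the log2(TPM + 1) scale in the monosome, 0.34 in the polysome and 0.48 in the ribosome-free libraries. For the other isoforms with at least 5 TPM in both monosome libraries it was smaller, at 0.20, 0.18 and 0.28 in the same order.

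Isoforms lay close to the border of the rule on both sides. The members nearest to a ratio of 2 were an isoform of 3764 nt, with 21.8 and 13.0 TPM in the monosome and 8.91 and 8.47 TPM in the polysome libraries, and one of 3471 nt, with 7.36 and 11.7 TPM in the monosome and 3.39 and 6.15 TPM in the ribosome-free libraries. The nearest isoforms outside were one of 1172 nt (307 and 366 TPM in the monosome, 149 and 188 TPM in the polysome libraries) and one of 1138 nt (75.3 and 77.7 TPM, 40.04 and 36.5 TPM). At the other end, 4 members with a monosome mean of at least 20 TPM were listed at 0 in all 4 other fraction libraries. They were 2466 nt (99.4 and 45.9 TPM in the monosome libraries), 583 nt (34.0 and 25.3 TPM), 2628 nt (25.6 and 30.9 TPM) and 2387 nt (25.4 and 25.4 TPM) long. The isoform of 583 nt was listed at 0 in both hippocampus libraries and in all 4 CA1 libraries as well, whereas that of 2466 nt had 105 and 141 TPM in hippocampus.

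The number of members depended on how the libraries were put on a common scale. In TPM, the log2 difference between monosome and ribosome-free RNA had a median of 0.32 over all 28268 isoforms, and the difference between monosome and polysome RNA had a median of 0. Scaling the 6 libraries by median ratios set both medians to 0 and left 745 members, and quantile normalization left 811, of which 751 were among the 1385. TPM within a fraction do not say how much RNA that fraction held, so members are isoforms with a high share in monosome RNA, not isoforms with most of their molecules there.

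The rule did not use read length, and in TPM as deposited the median over all members was close to that of the other isoforms. The median read length was 2192 nt for members, with quartiles of 1327 and 3061 nt, and 2173 nt for the other isoforms with at least 5 TPM in both monosome libraries. Isoforms chosen by the same rule for the polysome fraction (1905) had a median of 1753 nt, and those chosen for the ribosome-free fraction (963) one of 2044 nt. Members were thus spread over the whole range of lengths, as 10% of them were at most 859 nt and 10% at least 3712 nt. The closeness of the medians depended on the scale. After median ratios they were 2463 nt for members and 2148.5 nt for the others, and after quantile normalization 2387 and 2157 nt.

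The shortest class held the highest share of members. Classes were bounded at 700, 1000, 1500, 2000, 3000 and 4000 nt, each upper bound included. Of 464 isoforms of up to 700 nt with at least 5 TPM in both monosome libraries, 88 (19.0%) were members, and in the other 6 classes the share lay between 10.1% (1500 to 2000 nt) and 12.7% (3000 to 4000 nt). The polysome rule gave a different profile, with 5.68% in the shortest class, 25.3% from 1000 to 1500 nt and 5.59% above 4000 nt. The ribosome-free rule gave 15.5% in the shortest class and 5.89% above 4000 nt. These shares are descriptions, since isoforms of 1 gene share reads and are not independent.

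**Figure D2:**
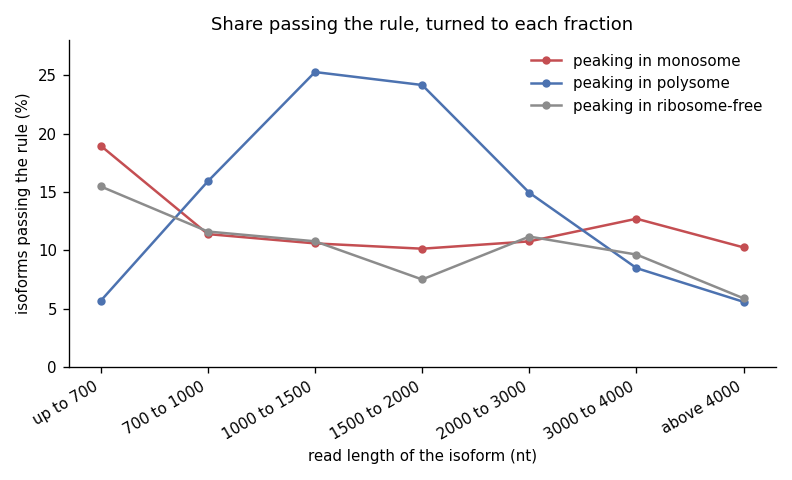
Share of isoforms (%) that passed the rule, turned to monosome (red), polysome (blue) or ribosome-free RNA (grey), in 7 classes of read length in nt; the denominator is the isoforms with at least 5 TPM in both libraries of that fraction. The monosome line is highest at up to 700 nt (19.0%) and lies between 10.1% and 12.7% in the other classes, whereas the polysome line peaks at 25.3% from 1000 to 1500 nt.

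The excess in the shortest class depended on the scale. With median ratios, 8.50% of isoforms of up to 700 nt passed, against 3.29% from 700 to 1000 nt and 8.30% from 3000 to 4000 nt, and with quantile normalization the values were 10.6%, 5.17% and 8.94%. Short members were more abundant than long ones, with a median monosome level of 40.6 TPM up to 700 nt and 12.6 TPM from 2000 to 3000 nt. Across the 1385 members, which share the same 6 libraries, Spearman's rho between read length and log2 monosome level was -0.18, and it was -0.15 across the others.

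Among members with a monosome mean of at least 20 TPM, the shortest was 399 nt long. It was listed at 0 in both ribosome-free libraries, with 22.8 and 25.4 TPM in the monosome and 13.0 and 5.46 TPM in the polysome libraries. The next, of 422 nt, had 4.89 and 5.51 TPM in the ribosome-free, 34.9 and 32.3 TPM in the monosome and 2.45 and 3.72 TPM in the polysome libraries. The longest reads were 22605 nt (23.2 and 35.2 TPM in the monosome libraries) and 10547 nt (750 and 667 TPM). The identifiers of both carry the code SUB1 in place of SUB0, and the sources do not explain it, so these lengths may not be those of the transcripts. In all, 23 members (1.66%) and 1.85% of all isoforms lacked the code SUB0.

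Members had low levels in both other fractions by construction, and these were close to each other. The rule set a ceiling on both, so the comparison is a description. On the log2(TPM + 1) scale the median difference between polysome and ribosome-free RNA was 0.15 over members, 0.90 over the other isoforms and 0.17 over all isoforms. Both polysome libraries lay above both ribosome-free libraries in 432 members (31.2%), against 38.3% of all isoforms and 66.4% of the other isoforms. Both ribosome-free libraries lay above in 244 members (17.6%), against 15.1% of all and 19.2% of the others. When libraries were scaled by median ratios, which sets the median of all isoforms to 0, the median of the same members was -0.35 and that of the others 0.28. Longer members tended towards polysome RNA, with a median difference of -0.22 up to 700 nt and 0.34 from 3000 to 4000 nt in TPM, and the others did so too, from -0.71 to 1.08.

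In hippocampus, which the rule did not use, members were present at lower levels than the other isoforms. Their median was 9.88 TPM (mean of 2 libraries), against 28.1 TPM for the other isoforms with at least 5 TPM in both monosome libraries and 5.38 TPM for all isoforms. The replicates differed, with medians of 6.31 and 13.2 TPM for members. Of the members, 1273 (91.9%) had a mean above 1 TPM and 90 (6.50%) one above 100 TPM. Both hippocampus libraries were at 0 in 85 members (6.14%), against 2.79% of the others, and exactly 1 of them was at 0 in 160 members (11.6%).

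Hippocampus levels of members remained below those of the others at a like monosome level. In members with a monosome mean of under 10 TPM the hippocampus median was 5.42 TPM, against 8.36 TPM for others in that range. From 20 to 50 TPM the medians were 14.5 and 34.0 TPM, and from 100 TPM on they were 95.9 and 176 TPM. By its rule a member has less RNA in the other fractions than another isoform of the same monosome level. With isoforms grouped by the mean of all 3 fractions instead, the medians were closer, at 6.34 and 8.24 TPM (under 10 TPM), 23.0 and 34.7 TPM (20 to 50 TPM) and 136 and 188 TPM (from 100 TPM). After the 727-nt isoform, the highest hippocampus levels of members were 1463 and 1448 TPM in the 3243-nt isoform and 1250 and 867 TPM in an isoform of 501 nt.

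**Figure D3:**
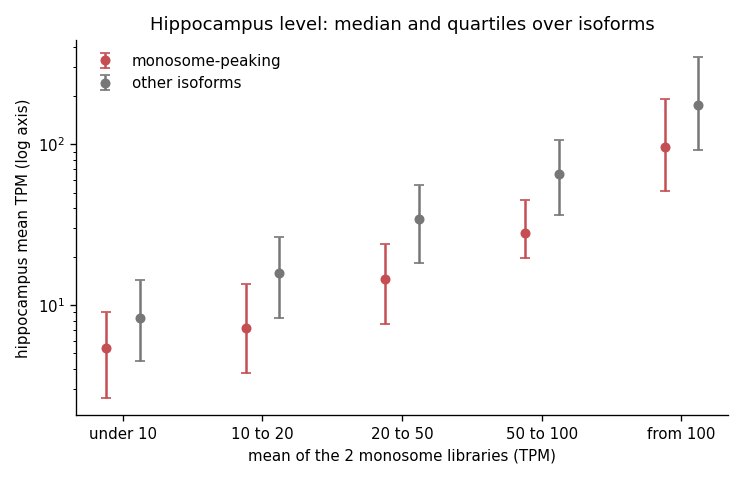
Hippocampus level in TPM (mean of 2 libraries, log axis) against the mean of the 2 monosome libraries in TPM; points are medians and bars quartiles over isoforms, not errors over replicates, for members (red) and other isoforms (grey). Members lie below the others in all 5 ranges, from 5.42 against 8.36 TPM in the lowest to 95.9 against 176 TPM in the highest.

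The CA1 libraries, also not used by the rule, tell in which CA1 layer an isoform took the larger share of the TPM. The limma test of neuropil against somata took log2(TPM + 1) of the 20393 isoforms whose mean over the 4 libraries reached 1 TPM, of which 1299 were members. The remaining members lay below that level, 43 of them at 0 in all 4 libraries. No member passed a Benjamini-Hochberg adjusted p of 0.05 in either direction, and 0% of all isoforms did. The smallest adjusted p from limma was 0.179. With 2 libraries per layer, the lack of calls does not show that no isoform differed. The paper, in its own comparison of neuronal genes with several isoforms, reported isoforms significantly enriched in each layer. At an unadjusted p under 0.05, 109 members (8.39%) were higher in neuropil, against 7.57% of all tested isoforms, and 60 (4.62%) were higher in somata, against 7.26%. Among the other isoforms with at least 5 TPM in both monosome libraries the shares were 9.96% and 9.76%, above those of members in both directions. When the test used the replicate number as a block, 6.77% of members were higher in neuropil, against 6.80% of all tested isoforms. Both neuropil libraries lay above both somata libraries in 352 members (27.1%; 22.8% of all tested), and both somata libraries lay above in 228 (17.6%; 22.1% of all). For the other isoforms these shares were 26.0% and 27.7%.

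The median difference of members was 0.12 towards neuropil (log2, quartiles -0.41 and 0.65), against -0.03 for the other isoforms and 0.01 for all tested. Polysome-peaking isoforms had a median of -0.11 and ribosome-free-peaking ones a median of 0.19. The median of members was 0.021 without somata replicate 2, when that of all tested isoforms was near 0. It was 0.14 without somata replicate 1, 0.15 without neuropil replicate 1 and 0.14 without neuropil replicate 2. The medians of all tested isoforms were then 0, 0 and 0.03. A layer of tissue holds several cell types in different shares, and in bulk samples more cells of a type and more RNA per cell cannot be told apart.

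**Figure D4:**
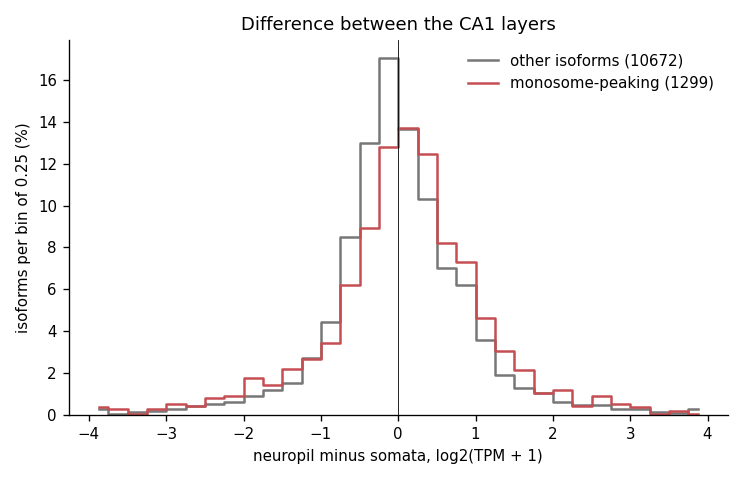
Distribution of the difference between neuropil and somata, each the mean of log2(TPM + 1) over 2 libraries. Curves give the 1299 tested members (red) and the tested other isoforms (grey). The y axis gives the share of isoforms in bins of 0.25, and values beyond 4 are drawn in the end bins. Both curves are centred near 0, with medians of 0.12 for members and -0.03 for the others.

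Some members had levels that did not overlap between the layers, and none of them passed the adjusted test. The isoform of 2824 nt (RSN_LD3.102_sub_8622_5105_0_2824_2824_SUB0_pNAp_25) had 1106 and 1125 TPM in somata and 2430 and 2733 TPM in neuropil, a log2 difference of 1.21 ± 0.11 (SE, limma adjusted p = 0.179). Its level was 1423 and 1502 TPM in the monosome, 368 and 429 TPM in the polysome and 229 and 264 TPM in the ribosome-free libraries. An isoform of 941 nt (RNN_LD1.106_ccs_144093_941_0_941_941_SUB0_pTNp_82) had 217 and 219 TPM in somata and 439 and 441 TPM in neuropil, a difference of 1.01 ± 0.10 (SE). The abundant 3243-nt isoform had 1154 and 1289 TPM in somata and 2567 and 2448 TPM in neuropil. In these 3 isoforms the layers did not overlap.

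Towards somata, an isoform of 4064 nt (RSN_LD3.104_sub_103888_4064_0_4064_4064_SUB0_pTNp_22) had 36.4 and 23.8 TPM in somata and was listed at 0 in both neuropil libraries. One of 921 nt (RNN_LD3.102_ccs_86202_921_0_921_921_SUB0_pTNp_25) had 63.1 and 54.1 TPM in somata and 17.1 and 15.3 TPM in neuropil, a difference of -1.79 ± 0.22 (SE). Both had an adjusted p of 0.179 from limma. In the fractions, the 921-nt isoform had 0 and 18.5 TPM in the ribosome-free and 15.95 and 26.4 TPM in the monosome libraries. A ribosome-free library thus lay above a monosome library, and membership held in 8 of 14 alternative settings. The 4064-nt isoform had 0.15 and 0 TPM in the ribosome-free and 22.4 and 24.7 TPM in the monosome libraries, and kept its membership in all 14. The 727-nt isoform was at 8173 and 7757 TPM in somata and 5115 and 6042 TPM in neuropil (log2 difference -0.52, limma adjusted p = 0.225).

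Gene names are known for 551 isoforms, which the study listed with a predicted gain or loss of a signal peptide or with a conserved unannotated ORF. A signal peptide is the N-terminal stretch that directs a nascent protein into the secretory pathway. The study drew these lists from isoforms it had predicted to be translated with the help of the same fraction libraries, so they are not independent of the levels described here. Of the 551, 295 reached 5 TPM in both monosome libraries and 20, from 19 genes or loci, were members. That is 6.78% of the 295, against 11.3% of all isoforms at that level. By list, 15 of 384 isoforms with a loss of the signal peptide, 4 of 140 with a gain and 1 of 27 with a conserved ORF were members. Turned to polysome, the rule took 39 of 315 listed isoforms at 5 TPM or more (12.4%), against 16.4% of all at that level, and turned to ribosome-free RNA it took 16 of 242, against 963 of 9513. The listed share was thus below that of all isoforms for each of the 3 fractions.

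The 20 named members had a median monosome mean of 18.9 TPM (6.81 to 469 TPM) and a median read length of 2763 nt (983 to 6902 nt). The smaller of their ratios to the other fractions was between 2.01 and 4.06, with a median of 2.37. In 19 of them both monosome libraries lay above the other 4, the exception being Tyro3. This follows largely from the rule, as it held for 97.6% of all members and 18.4% of all isoforms. When each replicate was taken separately, 9 of the 20 still passed, and after median-ratio scaling 10 of the 20 did.

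**Figure D5:**
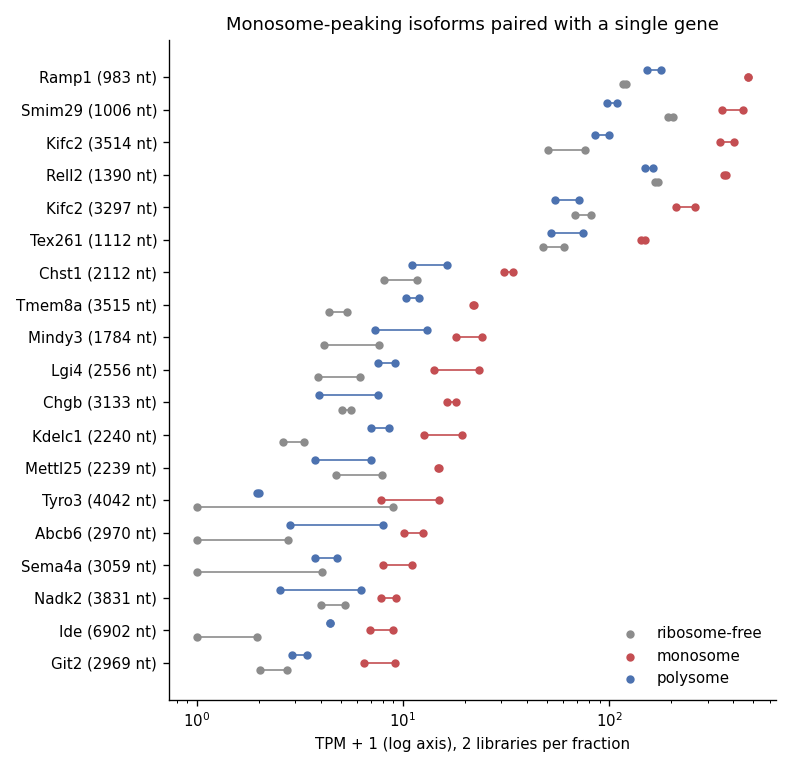
Level in TPM + 1 (log axis) of 19 members paired with a single gene, with 1 point for each of 2 libraries in the ribosome-free (grey), monosome (red) and polysome (blue) fractions, ordered by monosome mean. Largely because of the rule, the red points lie to the right of the other colours in 18 isoforms. In Tyro3 a ribosome-free library (7.96 TPM) lies above a monosome library (6.86 TPM).

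Of the named members, Ramp1 had the highest monosome mean. Ramp1, which joins the calcitonin receptor-like receptor to form the receptor for calcitonin gene-related peptide, was represented by an isoform of 983 nt that is predicted to lack the signal peptide. It had 119 and 116 TPM in the ribosome-free, 470 and 468 TPM in the monosome and 151 and 177 TPM in the polysome libraries, so monosome replicates were nearly equal. In CA1 it had 34.3 and 38.5 TPM in somata and 67.6 and 62.7 TPM in neuropil, with no overlap, a log2 difference of 0.82 ± 0.18 (SE, limma adjusted p = 0.210). Hippocampus held 75.4 and 63.8 TPM.

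Rell2, a RELT-like membrane protein, had 171 and 165 TPM in the ribosome-free, 366 and 359 TPM in the monosome and 148 and 162 TPM in the polysome libraries for an isoform of 1390 nt. Its CA1 layers were alike in level, with 90.2 and 96.6 TPM in somata and 86.5 and 104 TPM in neuropil (log2 difference 0.03 ± 0.16, SE). Tyro3, a receptor tyrosine kinase of the TAM family, was low and variable. Its 4042-nt isoform had 0 and 7.96 TPM in the ribosome-free, 14.0 and 6.86 TPM in the monosome and 0.97 and 1.01 TPM in the polysome libraries. Sema4a, a membrane-bound semaphorin, had 3.04 and 0 TPM, 10.02 and 6.99 TPM and 2.74 and 3.81 TPM in the same order (3059 nt), and was listed at 0 in both somata libraries.

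The transporter gene Abcb6, of the ATP-binding cassette family, had 1.77 and 0 TPM in the ribosome-free, 9.09 and 11.6 TPM in the monosome and 1.84 and 6.99 TPM in the polysome libraries (2970 nt). Tmem8a, which the RefSeq gene table of the GRCr8 assembly lists as a synonym of Pgap6, had 21.1 and 20.9 TPM in the monosome libraries and 9.37 and 10.9 TPM in the polysome libraries (3515 nt). The isoform of Tex261 (1112 nt) had 46.5 and 59.4 TPM in the ribosome-free, 141 and 149 TPM in the monosome and 51.0 and 73.6 TPM in the polysome libraries. In these isoforms, as in 97.6% of members, both monosome libraries lay above the others.

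Kifc2, a kinesin with a C-terminal motor that is found in neurons, was the gene with 2 members, both with a predicted loss of the signal peptide. The isoform of 3514 nt had 49.5 and 74.98 TPM in the ribosome-free, 401 and 343 TPM in the monosome and 84.6 and 98.7 TPM in the polysome libraries, the highest smaller ratio of the named members (4.06). The isoform of 3297 nt had 80.2 and 67.5 TPM, 210 and 260 TPM, and 53.5 and 70.3 TPM in the same order. In CA1 the 3514-nt isoform had 155 and 168 TPM in somata and 253 and 243 TPM in neuropil, a log2 difference of 0.62 ± 0.12 (SE, limma adjusted p = 0.194). The 3297-nt isoform had 89.5 and 70.9 TPM in somata and 80.1 and 112 TPM in neuropil, and its layers overlapped. In hippocampus the order of the 2 isoforms was the other way round, with 38.1 and 3.22 TPM for the longer and 132 and 250 TPM for the shorter one. Isoforms of 1 gene compete for shared reads in the estimate, so the split between these 2 is uncertain.

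Chgb, which encodes chromogranin B of dense-core vesicles, had a member of 3133 nt with 4.04 and 4.62 TPM in the ribosome-free, 17.1 and 15.4 TPM in the monosome and 2.91 and 6.54 TPM in the polysome libraries. A second listed isoform of Chgb, of 2740 nt, was more abundant and was not a member. It had 56.0 and 80.8 TPM, 203 and 149 TPM, and 166 and 171 TPM in the same order, so that its monosome and polysome levels overlapped. In hippocampus the 2740-nt isoform had 420 and 595 TPM and the member 6.14 and 36.4 TPM.

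Lgi4, a secreted protein needed for myelination in peripheral nerve, had a similar pair. Its member of 2556 nt had 5.21 and 2.86 TPM in the ribosome-free, 22.4 and 13.1 TPM in the monosome and 8.13 and 6.61 TPM in the polysome libraries. An isoform of 3699 nt that is not a member had 0.93 and 7.21 TPM, 46.2 and 37.3 TPM, and 33.1 and 49.2 TPM, again with overlap between monosome and polysome libraries. The other listed isoforms of Lgi4, of 3456 and 2541 nt, stayed under 5 TPM in all 6 fraction libraries.

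Chst1, a sulfotransferase that acts on keratan sulfate in the Golgi, had 10.7 and 7.10 TPM in the ribosome-free, 29.7 and 33.1 TPM in the monosome and 10.03 and 15.4 TPM in the polysome libraries (2112 nt). Kdelc1, listed as a synonym of Poglut2 and encoding a protein O-glucosyltransferase of the endoplasmic reticulum, had 1.62 and 2.31 TPM, 11.7 and 18.3 TPM, and 7.55 and 6.0 TPM (2240 nt). It had 5.60 and 4.41 TPM in somata and 14.0 and 9.75 TPM in neuropil, a log2 difference of 1.09 ± 0.46 (SE, limma adjusted p = 0.391).

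The remaining named members belong to genes of enzymes, scaffolds and small proteins. Ide, which encodes the insulin-degrading enzyme, had the longest read (6902 nt), with 0 and 0.96 TPM in the ribosome-free, 5.89 and 7.91 TPM in the monosome and 3.44 and 3.43 TPM in the polysome libraries. Mettl25, a gene of the methyltransferase-like family, had 6.91 and 3.73 TPM, 13.8 and 14.0 TPM, and 2.75 and 6.02 TPM (2239 nt), and a listed isoform of 2319 nt had 4.02 and 6.04 TPM in the monosome libraries and missed the minimum. The isoforms described next, of Git2, Nadk2 and Mindy3, have a predicted gain of a signal peptide.

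Git2, a scaffold and GTPase-activating protein for ARF, had 1.75 and 1.03 TPM in the ribosome-free, 8.15 and 5.46 TPM in the monosome and 2.42 and 1.89 TPM in the polysome libraries (2969 nt). Nadk2, the mitochondrial NAD kinase, had 4.25 and 3.01 TPM, 6.87 and 8.23 TPM, and 5.28 and 1.55 TPM (3831 nt). Mindy3, a deubiquitinase, had 3.13 and 6.66 TPM, 17.0 and 23.1 TPM, and 6.35 and 12.1 TPM (1784 nt). Second listed isoforms of Nadk2 (3463 nt) and Mindy3 (2186 nt) were at or near 0 in all fractions.

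Smim29, a small integral membrane protein, was the only member with a conserved unannotated ORF. Its isoform of 1006 nt had 191 and 202 TPM in the ribosome-free, 350 and 442 TPM in the monosome and 96.7 and 108 TPM in the polysome libraries, so its polysome level was below its ribosome-free level in both replicates.

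Between the CA1 layers, both neuropil libraries lay above both somata libraries in 5 of the 20 named members, against 22.8% of all tested isoforms, and both somata libraries lay above in 3, against 22.1%. Across the 20, the median log2 difference was 0.28 (-2.09 to 1.61). The unadjusted p was under 0.05 in 2 of the 20, the longer Kifc2 isoform and Ramp1, both higher in neuropil, against 7.57% of all tested isoforms in that direction. Adjusted p-values from limma lay between 0.194 and 0.960.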

How the data were processed

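The authors removed adapters with flexbar, built a reference from their full-length transcripts and estimated isoform levels with RSEM and Bowtie 2. The deposited values are TPM with 2 decimals, in separate tables for the fractions, hippocampus and CA1 layers. The submitters' processing notes name the rn6 build. The labels give polyA RNA for all 12 libraries used, whereas the methods give a total RNA kit for the fractions. RSEM divides shared reads among isoforms, so levels of similar isoforms depend on each other. The 6 footprinting libraries were not analysed here.

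Members and lists were chosen with earlier results of these data known. Levels entered log2(TPM + 1). Neuropil was tested against somata with limma 3.58.1 (R 4.3.3) with a trend, two-sided, with Benjamini-Hochberg adjustment over all isoforms that reached a mean of 1 TPM. The test was tried on simulated data. Read length was taken from identifiers. Gene names came from the study's lists by matching identifiers, all unique. The values of 1 named member are not reported here.

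Named isoforms were those paired with genes and other listed isoforms of these genes, the 4 with the highest monosome mean, and, with a monosome mean of at least 20 TPM, the 4 largest smaller ratios and the 2 shortest and 2 longest. To these came the 3 highest in hippocampus, the 2 smallest p in each direction, and the 2 nearest to each side of the ratio of 2. Levels of others were grouped by monosome level after the data were seen. Alternatives changed the limits, scaling, pseudocount, filter, prior variance and libraries, and used the replicate number as a block.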

Additional observations from a re-analysis of the deposited data

How the results depend on the processing

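The number of members followed the limits by construction, with 2468 at a minimum of 1 TPM, 857 at 10 TPM, 2549 at a ratio of 1.5 and 587 at a ratio of 3. It was 745 after median ratios, 811 after quantile normalization, 886 with each replicate taken separately, 1210 with 1 TPM added, and 1359 to 1806 with a library of a fraction left out. With each of the 6 libraries left out in turn, 873 of the 1385 members passed every time. The median read length was 1929 nt with circular consensus reads only, against 1909 nt for the others. It was 2387 nt for members after quantile normalization (others 2157 nt) and 2463 nt after median ratios (others 2148.5 nt). Without replicate 1 it was 2165 nt (others 2179.5 nt) and without replicate 2 it was 2172 nt (others 2172 nt). With SUB0 identifiers only, an alternative chosen after seeing the data, it was 2187 nt (others 2165 nt). The median log2 difference between polysome and ribosome-free RNA turned to -0.30 with quantile normalization and -0.35 with median ratios, which set the median of all isoforms to 0, and lay between 0.052 and 0.22 with a library left out. The hippocampus median, 3.44 as log2(TPM + 1), lay between 2.87 and 3.83 with a library left out. It moved by less than the spread between replicates in the other alternatives.

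Between neuropil and somata, no alternative gave a member with an adjusted p under 0.05. The median log2 difference was 0.044 with quantile normalization and 0.021 to 0.15 with a library left out. With a library left out, the members at an unadjusted p under 0.05 numbered 74 to 118 higher in neuropil and 35 to 112 higher in somata; the lone library of a layer was then assumed to vary like those of the other layer. The cause was not tested. With the replicate number as a block, 0 members had an adjusted p under 0.05. At an unadjusted p under 0.05, 88 members (6.77%) were then higher in neuropil, against 6.80% of all tested isoforms. Another 49 (3.77%) were higher in somata, against 6.43%. The higher share of members towards neuropil in the main test (8.39% against 7.57%) was thus not seen with the block. It was not seen with any library left out either, and it remained in the other alternatives. Deviations of same-numbered libraries correlated at 0.03 between the layers. This cannot tell whether same-numbered libraries were paired, since replicates of a layer differed widely. The SD of their log2 difference was 1.37 in somata and 1.65 in neuropil. Depth is unknown, so which isoforms listed at 0 lay under a detection limit cannot be told from TPM.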
